A study of Homo sapiens with 11 samples.

Results

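The noradrenergic core transcription factors are a small circle of DNA-binding proteins and cofactors that set the identity of sympathetic neurons and of the neuroblastoma cells that resemble them. The 8 examined here are PHOX2A, HAND2, GATA2, GATA3, ISL1, INSM1, TBX2 and LMO1, and they were chosen by name, as every probe that the array annotation gives to these symbols. That rule found 9 probes for the 8 genes, out of 48107 probes and 20046 named genes. All 8 genes passed the filter on dim probes and were among the 10323 genes tested. INSM1 passed it only through the solvent arrays of 6 d, where it was highest. HAND2 had 2 probes, of which one (ILMN_1667823) was not detected on any array, and the other (ILMN_2064902) stood for the gene. INSM1 and LMO1 lay close to background, whereas the other 6 members were detected on every array.

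The cells were SK-N-BE(2)-C, a clonal line from a MYCN-amplified neuroblastoma, and their RNA was hybridised to Illumina HT-12 v4 BeadChips. The groups were vorinostat 24 h (500 nM, 3 arrays) against DMSO 24 h (solvent, 3 arrays), and vorinostat 6 d (500 nM, 2 arrays, replicates 2 and 3) against DMSO 6 d (3 arrays). All groups shared the same medium, and everything measured stands for 1 line. Vorinostat is an inhibitor of histone deacetylases, enzymes that take acetyl groups off histones and other proteins.

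In noradrenergic neuroblastoma these factors are expressed from large enhancers to which they bind themselves, so that each helps to keep the others on. PHOX2A, HAND2, GATA2, GATA3 and ISL1 are known from mouse and chick work as successive regulators of sympathetic neuron formation, and several of them act on the genes of noradrenaline synthesis. A contrasting mesenchymal state of neuroblastoma cells, with other factors in charge, expresses this set weakly.

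The mean raw intensity of the arrays was 401 to 413 in vorinostat 24 h and 272 to 302 in DMSO 24 h, and it was 283 and 338 in vorinostat 6 d and 323 to 383 in DMSO 6 d. The vorinostat 24 h arrays were on 1 BeadChip and the DMSO 24 h arrays on another, so at 24 h chip and treatment cannot be told apart, while all 6 d arrays shared a chip. Between 15947 and 18696 probes were detected per array. Of the markers listed for neuroblastoma cells 10 were tested, with MYCN at a log2 intensity of 14.12 to 14.47. None of 5 Schwann and glial markers with a probe passed the filter, and their summed intensity was 92.8 to 104 in vorinostat 24 h, 91.5 to 126 in DMSO 24 h, 106 to 119 in vorinostat 6 d and 97.5 to 110 in DMSO 6 d.

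Promoter windows of 250 bases before and 50 after a start site were found for 6 of the 8 members, 12 windows in all (RefSeq, GRCh38.p14). They were searched on both strands for GATAA, the core letters read by GATA factors, because 2 of the members are GATA factors. GATAA occurred in 3 of the 12 windows, and in 22.7% of 35116 such windows of all genes. The windows shown are those of GATA2, the member that rose at both times and whose windows hold no GATAA, and those of HAND2 and ISL1, which hold it 3 times and 2 times. Capitals mark GATAA, or TTATC where it lies on the other strand.
GATA2, upstream start site, chr3:128493152-128493451, minus strand: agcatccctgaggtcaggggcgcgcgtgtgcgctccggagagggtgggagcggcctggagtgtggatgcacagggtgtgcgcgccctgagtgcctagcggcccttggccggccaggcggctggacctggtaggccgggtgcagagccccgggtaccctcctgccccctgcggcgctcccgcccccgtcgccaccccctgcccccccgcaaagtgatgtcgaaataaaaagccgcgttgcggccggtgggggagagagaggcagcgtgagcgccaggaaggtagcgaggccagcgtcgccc
GATA2, downstream start site, chr3:128488481-128488780, minus strand: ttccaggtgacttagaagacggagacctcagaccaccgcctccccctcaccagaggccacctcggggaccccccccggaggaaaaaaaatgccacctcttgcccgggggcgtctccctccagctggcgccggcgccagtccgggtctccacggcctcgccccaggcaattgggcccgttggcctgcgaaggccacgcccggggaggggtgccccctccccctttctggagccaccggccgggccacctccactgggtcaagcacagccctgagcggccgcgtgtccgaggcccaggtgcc
HAND2, chr4:173530180-173530479, minus strand: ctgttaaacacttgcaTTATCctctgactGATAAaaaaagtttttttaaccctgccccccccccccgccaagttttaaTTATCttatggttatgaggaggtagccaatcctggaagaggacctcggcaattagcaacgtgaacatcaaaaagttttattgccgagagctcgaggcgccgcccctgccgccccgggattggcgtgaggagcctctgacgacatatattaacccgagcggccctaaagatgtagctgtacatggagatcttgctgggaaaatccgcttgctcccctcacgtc
ISL1, chr5:51383198-51383497, plus strand: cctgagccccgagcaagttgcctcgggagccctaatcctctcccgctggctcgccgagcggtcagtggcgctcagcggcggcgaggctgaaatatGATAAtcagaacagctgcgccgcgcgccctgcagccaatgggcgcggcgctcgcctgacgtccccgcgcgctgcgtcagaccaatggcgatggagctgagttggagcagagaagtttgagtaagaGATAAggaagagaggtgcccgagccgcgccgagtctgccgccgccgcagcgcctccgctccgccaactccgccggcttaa

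The GATA2 windows were rich in G and C (72.3% and 71.3%), as was that of PHOX2A (73.7%), against 50.3% for HAND2 and 66.7% for ISL1. In the HAND2 window the third GATAA overlaps a TAATTA, a palindrome read by many homeodomain proteins, which starts 175 bases before the start site. TAATTA occurred in 2 of the 12 member windows, those of HAND2 and LMO1, and in 4.84% of all windows. The HAND2 window shares 272 bases with a window of HAND2-AS1, a noncoding RNA read in the opposite direction, so that both genes hold these letters. A match of letters says nothing on binding, which was not measured.

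After 24 h of vorinostat, GATA2 and TBX2 rose, by 1.47-fold and 1.68-fold, and the other 6 members did not pass the test. The called members are 2 of 8, both higher. Among all genes tested 27.6% were called at this time, 16.5% as higher and 11.1% as lower, so that the share among the members lies near that background. The median log2 change was 0.24 over the 8 members and 0.04 over all genes. Vorinostat and DMSO arrays did not overlap for 4 members, GATA2, TBX2, ISL1 and INSM1, all higher with vorinostat, and for 46.4% of all genes (26.2% higher, 20.3% lower).

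**Figure D1:**
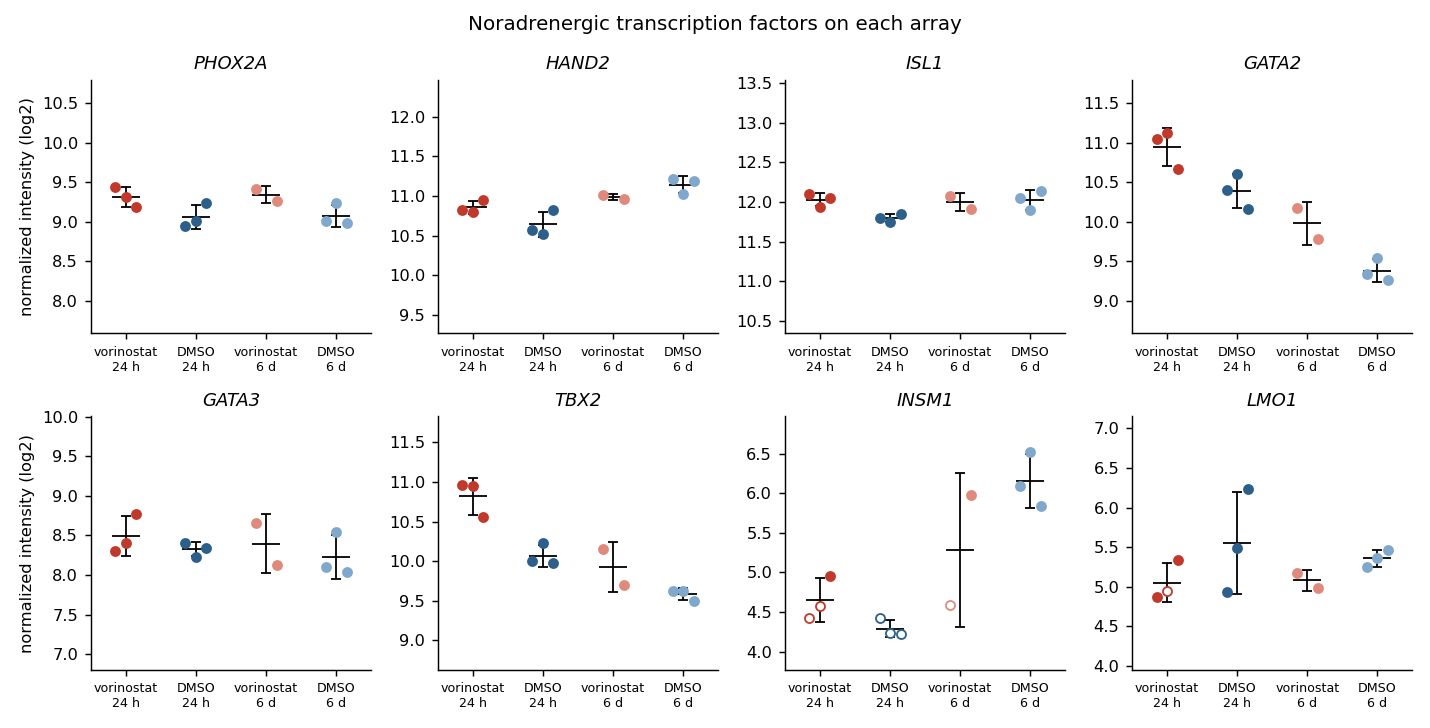
Normalized log2 intensity (y axis) of the probe that stood for each of the 8 members, on every array (points) of the 4 groups (x axis), with the mean (bar) and SD (whiskers); open points were not detected, and every panel spans the same range of log2 units. GATA2 and TBX2 are highest on the vorinostat 24 h arrays and lowest on the DMSO 6 d arrays, and INSM1 is open on all 3 DMSO 24 h arrays.

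TBX2 (ILMN_1792256) is a T-box repressor that keeps neuroblastoma cells proliferating and lies on a chromosome arm often gained in this tumour. Its log2 intensity was 10.96, 10.95 and 10.55 on the vorinostat arrays and 10.00, 10.23 and 9.98 on the DMSO arrays of 24 h. The lowest vorinostat array thus lay above the highest DMSO array. The change was 0.75 (SE 0.13, 95% interval 0.47 to 1.03), with a limma adjusted p of 0.00059. TBX2 was the only member whose call at 24 h held in all 24 alternative settings, with adjusted p-values of 4.61e-10 to 0.0479.

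GATA2 (ILMN_2102670) is a zinc-finger factor that acts with GATA3 in the sympathetic lineage and is better known from blood stem cells. It had a log2 intensity of 11.05, 11.12 and 10.67 with vorinostat and 10.40, 10.60 and 10.16 with DMSO at 24 h. The groups did not overlap, and replicate 3 was the lowest array of both. The change was 0.56 (SE 0.14, 95% interval 0.26 to 0.86, adjusted p = 0.00815). Without vorinostat replicate 2 the change was 0.47 and the adjusted p 0.0505, and by an analysis of variance of the 24 h arrays, run here on the same values and genes, the adjusted p was 0.121.

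ISL1 (ILMN_1763390), a LIM-homeodomain factor of sympathetic and sensory neurons, was the member closest to the threshold among those not called. It had a log2 intensity of 12.10, 11.94 and 12.06 with vorinostat and 11.79, 11.75 and 11.85 with DMSO at 24 h. All vorinostat arrays lay above all DMSO arrays, by a small step. The change was 0.23 (SE 0.09, 95% interval 0.05 to 0.42, adjusted p = 0.0582). It passed when only the 24 h arrays were fitted (adjusted p = 0.0293), and when DMSO 6 d replicate 2 or replicate 3 was left out (0.0392 and 0.0472).

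HAND2, a basic helix-loop-helix factor needed for the noradrenergic phenotype, had a log2 intensity of 10.82, 10.80 and 10.95 with vorinostat and 10.58, 10.52 and 10.82 with DMSO at 24 h. DMSO replicate 3 reached into the vorinostat group. The change was 0.22 (SE 0.10, adjusted p = 0.11), and without that DMSO array it was 0.31 (adjusted p = 0.0372). Its other probe gave 4.17 to 4.70 with vorinostat and 4.19 to 4.33 with DMSO, at background throughout, and could not be tested.

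PHOX2A (ILMN_1670681) is a homeodomain factor that switches on DBH and TH. It had a log2 intensity of 9.44, 9.32 and 9.19 with vorinostat and 8.94, 9.01 and 9.23 with DMSO at 24 h, and the groups overlapped by 1 DMSO array. The change was 0.25 (SE 0.12, 95% interval 0.0042 to 0.50, adjusted p = 0.122). GATA3 (ILMN_2406656), which maintains sympathetic neurons and their noradrenaline synthesis in mice, had 8.30, 8.40 and 8.77 with vorinostat and 8.41, 8.23 and 8.35 with DMSO. Its groups overlapped widely, with a change of 0.17 (SE 0.17, 95% interval -0.20 to 0.53, adjusted p = 0.50).

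INSM1 and LMO1 were measured at the edge of detection. INSM1 (ILMN_1797668) is a zinc-finger repressor of neuroendocrine cells that recruits deacetylases and the demethylase KDM1A. Its probe was at 1.06, 1.10 and 1.18 times the array background with vorinostat and at 1.04, 0.98 and 0.96 times with DMSO at 24 h, and it was detected on 1 of 3 vorinostat arrays and on no DMSO array. Most arrays of both groups thus gave background, so that no fold is given, and the fitted log2 change of 0.36 had a 95% interval of -0.28 to 1.01 (adjusted p = 0.40).

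LMO1 (ILMN_1662917) is a LIM-only cofactor that binds no DNA itself, and variants near it predispose to neuroblastoma. It had a log2 intensity of 4.87, 4.95 and 5.33 with vorinostat and 4.94, 5.49 and 6.23 with DMSO at 24 h, with 2 and 3 arrays detected. The DMSO arrays spread over more than 1 log2 unit, and the groups overlapped. It was the only member with a negative 24 h change (-0.50, SE 0.28, adjusted p = 0.19). Without DMSO replicate 1, the lowest of its group, the change was -0.83 and passed (adjusted p = 0.037).

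The arrays of vorinostat 24 h were the brightest before normalization, and the size of the 24 h changes depended on how arrays were scaled. Scaling by array medians in place of quantiles moved the median of all genes to 0.66 at 24 h, and 6 members were called higher, as 6961 genes were, against 60 lower. Relative to that shift, TBX2 was at 0.76 and GATA2 at 0.56, PHOX2A at 0.32, GATA3 at 0.24, HAND2 at 0.19 and ISL1 at 0.17. INSM1 and LMO1, both close to background, were below it, at -0.30 and -0.91. The part of brightness in these changes was not tested.

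After 6 d, GATA2 again rose, by 1.51-fold, and was the only member called. That is 1 of 8, a share near the background, since 10.8% of all genes were called at 6 d, 3.93% as higher and 6.92% as lower. The median log2 change was 0.07 over the members and -0.02 over all genes. The vorinostat and DMSO arrays did not overlap for 5 members, GATA2, TBX2 and PHOX2A higher and HAND2 and LMO1 lower with vorinostat, and for 38.6% of all genes (16.9% higher, 21.7% lower).

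GATA2 had a log2 intensity of 10.17 and 9.79 with vorinostat and 9.34, 9.54 and 9.26 with DMSO at 6 d. The change was 0.60 (SE 0.16, 95% interval 0.26 to 0.93, adjusted p = 0.0238). In a fit of the 6 d arrays alone, which share a chip, the adjusted p was 0.0485. The call rested on single arrays and on the processing. It was lost without vorinostat replicate 2 (change 0.40), without DMSO replicate 1 (0.58, adjusted p = 0.0804) and without DMSO replicate 3 (0.54 and 0.0527). With all arrays kept it was lost with no detection filter (adjusted p = 0.0855) and with no trend (0.0756). It was also lost with median scaling (change 0.30, adjusted p = 0.334), where relative to the median of all genes GATA2 was at 0.61.

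TBX2 had a log2 intensity of 10.15 and 9.70 with vorinostat and 9.63, 9.62 and 9.49 with DMSO at 6 d. Both vorinostat arrays lay above the DMSO arrays, one of them by little. The change of 0.35 (SE 0.15, 95% interval 0.03 to 0.66) did not pass (adjusted p = 0.145). PHOX2A had 9.42 and 9.27 with vorinostat and 9.01, 9.23 and 8.98 with DMSO, a change of 0.27 (SE 0.13, adjusted p = 0.212). With median scaling the PHOX2A change was -0.05, where the median of all genes was -0.31, so that relative to all genes it stayed at 0.26.

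HAND2 lay on the other side at 6 d, with a log2 intensity of 11.02 and 10.96 with vorinostat and 11.21, 11.02 and 11.19 with DMSO. The highest vorinostat array and the lowest DMSO array differed only in the third decimal, and the change was -0.15 (SE 0.11, 95% interval -0.38 to 0.08, adjusted p = 0.407). ISL1 had 12.08 and 11.92 with vorinostat and 12.05, 11.90 and 12.14 with DMSO, a change of -0.03 (95% interval -0.24 to 0.18). GATA3 had 8.66 and 8.13 with vorinostat and 8.10, 8.55 and 8.03 with DMSO, a change of 0.17 (95% interval -0.23 to 0.57). Neither gene separated the groups.

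INSM1 had a log2 intensity of 4.59 and 5.97 with vorinostat and 6.10, 6.52 and 5.84 with DMSO at 6 d. It was detected on all 3 DMSO arrays and on 1 of 2 vorinostat arrays, and the detected vorinostat array lay within the DMSO range. The change of -0.87 (SE 0.34, 95% interval -1.59 to -0.15) did not pass (adjusted p = 0.111). Without vorinostat replicate 3 it was -1.57, resting on 1 vorinostat array without detection, and without vorinostat replicate 2 it was -0.18. INSM1 passed the filter only through DMSO 6 d, where it was highest and which enters this comparison. LMO1 had 5.18 and 4.99 with vorinostat and 5.25, 5.36 and 5.46 with DMSO, a change of -0.28 (SE 0.31, adjusted p = 0.621), and its groups did not overlap.

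**Figure D2:**
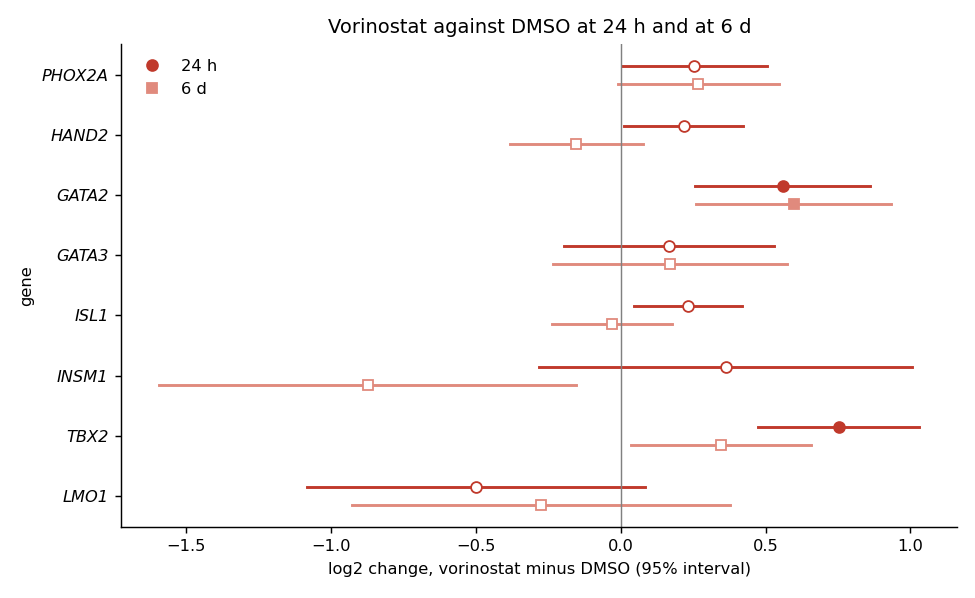
Log2 change of each member, vorinostat minus DMSO (x axis), at 24 h (circles) and at 6 d (squares), with 95% intervals of the limma fit; filled symbols passed the adjusted threshold of 0.05. GATA2 has about the same change at both times (0.56 and 0.60), and INSM1 is on opposite sides of 0 (0.36 and -0.87) with the widest intervals, its 24 h value resting mostly on arrays without detection.

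The vorinostat effect at 6 d minus that at 24 h was tested as a contrast of its own. INSM1 was the only member called, with a difference of -1.24 (SE 0.46, 95% interval -2.20 to -0.27, adjusted p = 0.0498), where 30.8% of all genes were called. The gene passed the filter only through DMSO 6 d, which enters this difference. Its 24 h effect came mostly from arrays on which it was not detected, and the difference lost its call when any 1 of 9 arrays was left out, among them vorinostat 6 d replicate 2 (-0.55, adjusted p = 0.345). HAND2 came next, at -0.37 (95% interval -0.68 to -0.06, adjusted p = 0.0649), and passed without DMSO 24 h replicate 3 (-0.46 and 0.0246) and without DMSO 6 d replicate 2 (-0.43 and 0.0352). When the fit took in replicate number, HAND2 passed (adjusted p = 0.0452) and INSM1 did not (adjusted p = 0.056).

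TBX2 had a smaller effect at 6 d than at 24 h, by 0.41 on the log2 scale (95% interval of the difference -0.83 to 0.01), and this did not pass (adjusted p = 0.13). It passed without vorinostat 24 h replicate 3 (-0.54 and 0.0444) and without vorinostat 6 d replicate 2 (-0.63 and 0.0397). For GATA2 the difference was 0.04, with an interval of -0.41 to 0.49, and for PHOX2A it was 0.01 (-0.36 to 0.39). The 2 genes were thus measured with about the same change at both times, within intervals that reach well to either side of 0.

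The members were also compared between the times. The time comparisons share their arrays with the treatment comparisons above, and the arrays of 6 d lay on a chip of their own, so that chip and time cannot be told apart. Within DMSO, HAND2 and INSM1 rose and GATA2 and TBX2 fell at 6 d, 4 of 8 members, where 30.1% of all genes were called, 17.1% as higher and 13% as lower. INSM1 is counted although it passed the filter only through DMSO 6 d. The arrays of the DMSO times did not overlap for 5 members, 3 higher and 2 lower at 6 d, and for 40.4% of all genes (22.1% higher, 18.3% lower). Within vorinostat GATA2 and TBX2 fell, 2 of 8, where 19.7% of all genes were called, 7.45% as higher and 12.2% as lower. The vorinostat times did not overlap for 3 members, HAND2 higher and GATA2 and TBX2 lower at 6 d, and for 53.2% of all genes (23.2% higher, 30% lower).

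GATA2 averaged 9.38 ± 0.14 in DMSO 6 d and 10.39 ± 0.22 in DMSO 24 h (SD, n = 3 each). It was 2.01-fold lower at 6 d (log2 change -1.005, SE 0.14, adjusted p = 9.99e-05). In vorinostat it averaged 9.98 ± 0.27 at 6 d (n = 2) and 10.94 ± 0.25 at 24 h (n = 3), 1.95-fold lower at 6 d (-0.97, SE 0.16, adjusted p = 0.000582). By level, vorinostat 24 h was highest, then DMSO 24 h, vorinostat 6 d and DMSO 6 d. Only the middle pair touched, with 9.79 and 10.17 in vorinostat 6 d and a lowest array of 10.16 in DMSO 24 h.

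TBX2 had the same order of groups. It averaged 9.58 ± 0.08 in DMSO 6 d and 10.07 ± 0.14 in DMSO 24 h, a log2 change of -0.49 (SE 0.13, adjusted p = 0.0108). In vorinostat the averages were 9.93 ± 0.31 at 6 d and 10.82 ± 0.23 at 24 h, a change of -0.90 (SE 0.15, adjusted p = 0.000574). With median scaling the DMSO change was -0.07 and was not called, where the median of all genes was 0.41, and relative to it TBX2 was at -0.49.

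HAND2 went the other way in DMSO, with 11.14 ± 0.10 at 6 d and 10.64 ± 0.16 at 24 h, 1.42-fold higher at 6 d (log2 change 0.50, SE 0.10, adjusted p = 0.00118). In vorinostat it had 10.99 ± 0.04 at 6 d and 10.86 ± 0.08 at 24 h, a change of 0.13 (SE 0.11) that did not pass (adjusted p = 0.426). DMSO 6 d was the highest group and DMSO 24 h the lowest, with both vorinostat groups between.

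INSM1 averaged 6.15 ± 0.34 in DMSO 6 d, detected on all 3 arrays, and 4.29 ± 0.11 in DMSO 24 h, detected on none. The fitted log2 change was 1.86 (95% interval 1.22 to 2.51, adjusted p = 0.000319), and 0.66 to 2.03 over the alternatives. Set against the lowest level detected on the DMSO 24 h arrays, or its own value where higher, it was 3.25-fold higher. INSM1 passed the filter only through DMSO 6 d, so this call is no independent evidence of a rise. In vorinostat it had 5.28 ± 0.98 at 6 d and 4.65 ± 0.27 at 24 h, a change of 0.63 (SE 0.34, adjusted p = 0.208). This became 1.35 without vorinostat 6 d replicate 2, resting on the 1 array left at 6 d. DMSO 6 d was thus the only group in which the gene was detected throughout.

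ISL1 was 0.23 higher in DMSO 6 d than in DMSO 24 h on the log2 scale (SE 0.09, adjusted p = 0.0581), and passed without DMSO 6 d replicate 2 (0.29 and 0.0258). Between the vorinostat groups it differed by -0.03 (95% interval -0.24 to 0.17). PHOX2A differed by 0.01 in DMSO (95% interval -0.24 to 0.26) and by 0.02 in vorinostat (-0.25 to 0.30), GATA3 by -0.10 in both, and LMO1 by -0.19 and 0.03. No group of PHOX2A, GATA3 or LMO1 stood apart in time beyond the spread of its arrays.

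**Figure D3:**
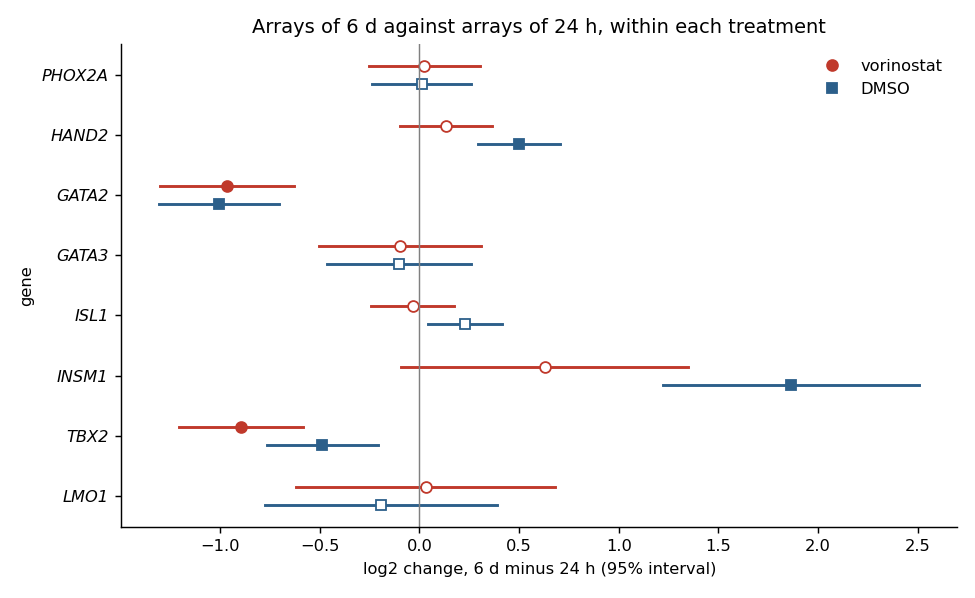
Log2 change of each member, 6 d minus 24 h (x axis), within vorinostat (circles) and within DMSO (squares), with 95% intervals of the limma fit; filled symbols passed the adjusted threshold of 0.05. GATA2 fell by about 1 log2 unit in both treatments, TBX2 fell in both, and HAND2 (0.50) and INSM1 passed within DMSO but not within vorinostat. The INSM1 square is drawn at the fitted value against DMSO 24 h arrays on which the gene was not detected. INSM1 passed the filter only through DMSO 6 d.

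GATA2 and TBX2 ran closely together over the 11 arrays, with a Pearson r of 0.96, the highest among the 15 pairs of the 6 members detected on every array. The arrays fall into 4 groups on 3 chips, which both genes share. Their deviations from the group means still had an r of 0.91. In each of the 4 groups the array with the lowest GATA2, replicate 3, was also the one with the lowest TBX2. HAND2 and ISL1 had an r of 0.76 (0.65 for the deviations), and HAND2 and GATA2 one of -0.70 (-0.72). These are descriptions with no test.

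**Figure D4:**
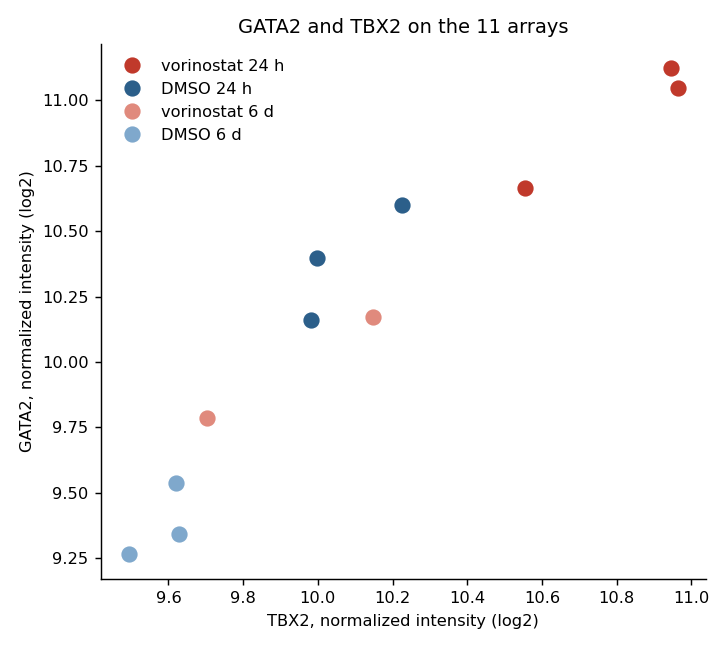
Normalized log2 intensity of TBX2 (x axis) against GATA2 (y axis), a point for each of the 11 arrays, coloured by group. The points lie along a line (r = 0.96), with the 3 vorinostat 24 h arrays at the upper end and the 3 DMSO 6 d arrays at the lower end.

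Among the other 8110 genes detected on every array, those most like a member by Pearson r over the 11 arrays were DOK4 (0.98) and ADAT1 (0.98) for GATA2, and ELAVL4 (0.96) and CKLF (0.96) for TBX2. ELAVL4 encodes a neuronal RNA-binding protein. For PHOX2A they were ZNF112 (0.95) and TFAP2B (0.85), for HAND2 LRRC37B (0.92) and ABCC9 (0.92), for ISL1 ACO1 (0.88) and NTAN1 (0.87), and for GATA3 ZC3H4 (0.87) and MED22 (0.81). Each r is over the same 11 arrays in 4 groups and is given with no test.

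Of 27 other sympathoadrenal and adrenergic factors 22 were tested. At 24 h 3 of them rose, HEY1, TFAP2B and HAND1, and INSM2 fell, with 18 not called and a median of 0.12. Of all genes 16.5% were called higher and 11.1% lower, with a median of 0.04. HEY1, a Notch target and repressor, had the largest change among them, with a log2 intensity of 9.45, 9.41 and 9.25 in vorinostat and 8.26, 8.31 and 7.95 in DMSO (1.20, SE 0.14, adjusted p = 1.62e-05). Its dimmer probe (ILMN_2407308), detected on all 11 arrays, changed by 0.14 (adjusted p = 0.779 over all probes), and the mean of both probes by 0.67. TFAP2B, an AP-2 factor of sympathetic progenitors, had 9.23, 9.01 and 8.99 in vorinostat and 8.67, 8.64 and 8.59 in DMSO (0.44, adjusted p = 0.0208). The groups of both genes did not overlap, and the TFAP2B call was lost without DMSO replicate 3 or vorinostat replicate 1 (adjusted p up to 0.108). HAND1, the close relative of HAND2, changed by 0.29 (adjusted p = 0.0373), and INSM2, that of INSM1, by -0.30 (adjusted p = 0.0308). With median scaling INSM2 turned to 0.29, where the median of all genes was 0.66. The calls of HAND1 and INSM2 were each lost in 9 of 24 alternatives, most of them with 1 array left out.

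At 6 d TFAP2B rose again and TBX3 joined it, while INSM2 fell again, with 19 of the 22 not called, where 10.8% of all genes were called. TFAP2B had a log2 intensity of 9.17 and 8.90 in vorinostat and 8.43, 8.74 and 8.26 in DMSO (0.56, adjusted p = 0.0242), lost in 7 of 23 alternatives, among them without vorinostat replicate 2 and without DMSO replicate 1 or 3. TBX3, the closest paralogue of TBX2, had 8.74 and 7.98 in vorinostat and 7.42, 7.41 and 7.54 in DMSO (0.90, SE 0.18, adjusted p = 0.00489), and it was not called without vorinostat replicate 2, with median scaling or with the mean of its probes (0.41), of which the dimmer (ILMN_1701393) changed by -0.09. INSM2 changed by -0.44 (adjusted p = 0.0152), lost without either vorinostat array. MYCN had a change of 0.20 at 24 h (adjusted p = 0.062) and of -0.03 at 6 d. Its dimmer probe (ILMN_1653761), detected on all 11 arrays, changed by 0.49 at 24 h and passed (adjusted p = 0.0192 over all probes). At 6 d that probe changed by 0.16 (adjusted p = 0.592).

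LDB2, an adaptor that ties LIM proteins such as ISL1 and LMO1 to DNA-bound complexes, moved in opposite directions at the times. It had a log2 intensity of 10.28, 10.45 and 10.17 in vorinostat and 9.59, 9.66 and 9.45 in DMSO at 24 h (0.73, SE 0.12, adjusted p = 0.000376). At 6 d it had 10.05 and 9.70 in vorinostat and 10.79, 10.78 and 10.47 in DMSO (-0.80, SE 0.14, adjusted p = 0.00177). Neither comparison overlapped, and the difference of the effects was -1.53 (adjusted p = 1.88e-05). Of the 14 partner proteins tested LDB2 was the only one called at either time in the fit without replicate number. In that fit 27.6% of all genes were called at 24 h and 10.8% at 6 d. Once replicate number entered the fit, CHD4 (-0.30 without it) and RBBP7 (0.26 without it) also passed at 24 h (adjusted p = 0.0218 and 0.0417). KDM1A, HDAC1 and HDAC2 had changes of 0.08 to 0.14 at 24 h and of -0.14 to 0.18 at 6 d.

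HAND2-AS1 had a log2 intensity of 10.31, 10.59 and 10.28 in vorinostat and 9.84, 10.12 and 9.85 in DMSO at 24 h. The groups did not overlap, and the change of 0.45 (SE 0.19) did not pass (adjusted p = 0.082), but passed once replicate number entered the fit (adjusted p = 0.0111). Its other detected probe changed by 0.42 and passed in the fit over all probes (adjusted p = 0.00633). At 6 d the changes were -0.06 and 0.17, neither called. Of 3 protein-coding neighbours tested CLPB was called higher at 24 h (0.73, adjusted p = 0.0427), from a probe detected on 4 of 11 arrays, and the call was lost in 8 of 24 alternatives. CLPB passed the filter only through vorinostat 24 h, where it is high, so its call is no independent evidence of a rise.

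Of 9 catecholamine genes, listed as known targets of these factors and including the granins CHGA and CHGB, 8 were tested. At 24 h GCH1 and CHGB rose and TH, SLC18A1 and DBH fell, where 27.6% of all genes were called, 16.5% as higher and 11.1% as lower. The median log2 change was -0.10 over the 8 genes and 0.04 over all genes. With median scaling, which moved the median of all genes at 24 h to 0.66, SLC18A1 was at 0.0061 (adjusted p = 0.98) and TH at -0.32 (adjusted p = 0.173). Both thus lay below that median. TH and CHGB were not called by the analysis of variance. At 6 d DBH, SLC6A2 and DDC rose and none fell, with the DDC call lost in 14 of 23 alternatives. At this time 3.93% of all genes were called higher. The median was 0.32 over the 8 genes and -0.02 over all genes. DBH, which turns dopamine into noradrenaline, had a log2 intensity of 10.85, 10.73 and 11.06 in vorinostat and 11.50, 11.25 and 11.37 in DMSO at 24 h (-0.49, adjusted p = 0.0127, not called without DMSO replicate 1 or vorinostat replicate 2, and 0.13 with median scaling). At 6 d it had 11.15 and 11.23 in vorinostat and 9.96, 9.71 and 10.35 in DMSO (1.18, adjusted p = 0.0003), and the difference of the effects was 1.67 (adjusted p = 2.3e-05). PHOX2A and HAND2, known activators of DBH, were not called at either time.

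Factors of the mesenchymal state were mostly not detected. Of 20 listed 8 were tested, and at 24 h TWIST1 (0.49), CREB3L2 (1.06), ETS1 (0.52) and SIX4 rose. That is 4 of 8, where 16.5% of all genes were called higher. The ETS1 call was lost by the analysis of variance, without DMSO replicate 3 and without vorinostat replicate 2 (adjusted p up to 0.114). The TWIST1 call was lost by the analysis of variance (adjusted p = 0.0892). The median log2 change was 0.60 over the 8 and 0.04 over all genes. FOSL2 and IRF1, among the 8 but not called, passed the filter only through vorinostat 24 h, where they are high. Their values enter this median, so it is no independent evidence of a rise. SIX4, not detected on any DMSO array of 24 h, was 2.06-fold above the lowest level detected there. Its log2 change was 0.44 to 1.45 over the alternatives. At 6 d SIX4 (-0.99) and ETS1 (-0.79) fell, SIX4 not without vorinostat replicate 2 and ETS1 not without vorinostat replicate 3. That is 2 of 8, where 6.92% of all genes were called lower. Of 8 fibroblast, endothelial and blood markers 6 were detected on at least 1 vorinostat 24 h array and 2 on a DMSO 24 h array. Their summed intensity was 928 to 989 in vorinostat 24 h and 587 to 701 in DMSO 24 h, and it was 2027 to 2225 in vorinostat 6 d and 1894 to 2696 in DMSO 6 d. Most of this sum was DCN alone. Its mean log2 intensity was 9.37 in vorinostat 24 h, 8.63 in DMSO 24 h, 10.86 in vorinostat 6 d and 10.93 in DMSO 6 d. DCN (0.74) and HBA1 were called higher at 24 h and neither was called at 6 d, while CD68 changed by -0.12 at 24 h (adjusted p = 0.712). Set against the lowest level detected on the DMSO 24 h arrays, or its own value where higher, HBA1 was 2.35-fold higher. Its log2 change was 0.47 to 1.58 over the alternatives. HBA1 passed the filter only through vorinostat 24 h, where it is high, so its call is no independent evidence of a rise. COL1A1 and COL3A1, which mark fibroblasts as DCN does, did not pass the filter, nor did PECAM1 and CDH5 of endothelium and PTPRC of leukocytes. Their part in the changes of the members was not tested.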

How the data were processed

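Arrays were grouped by the treatment and time in the labels, and replicate numbers came from the titles. The authors deposited non-normalized intensity values and detection p-values per probe, and separately an intensity table normalized with BeadStudio. Both tables hold all 11 arrays, and their probes (48107) were paired by value, all of them mutually. The annotation names 1 gene for 30113 probes. The members and lists were chosen with earlier results of these data known.

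Intensities were background corrected with normexp (limma 3.58.1, R 4.3.3, offset 16, background inferred from the detection p-values the authors deposited), quantile normalized and taken as log2. A probe was detected with a detection p under 0.01 and an intensity above the array's background centre, the median of probes with a p above 0.9. A gene was represented by its brightest probe among those detected throughout some group (10323 genes). The 4 groups entered 1 limma fit (lmFit, then eBayes with trend), with Benjamini-Hochberg adjustment over all genes and a threshold of 0.05. Changes are log2 differences, the first group named minus the second. The steps were tested on simulated data. The alternatives changed the source table, scaling, background, filter, probe rule, moderation, samples, block and test. Named genes are the members, the listed genes that passed with up to 4 others, and the 2 genes most like each member.

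The methods speak of independent experiments at 24 h, and nothing says so for 6 d, where p-values may measure technical spread. At 24 h the deviations of same-numbered arrays from the means of their groups correlated over genes (r = 0.109, 0.195 and 0.246). The numbers may thus pair these samples, which the reported fit does not use. With the replicate number as a block GATA2 kept its call at 24 h (limma adjusted p = 0.000271). At 6 d the pairs had r of 0.0846 and 0.1. Precision is limited by how few arrays there are. Array medians of the authors' normalized table were 107 to 112, so background had not been subtracted there. Python 3.11.15, pandas 2.3.3 and Matplotlib 3.10.9 made the tables and figures.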

Additional observations from a re-analysis of the deposited data

Results flagged for a closer look

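The vorinostat effect on INSM1 differed between the times by a test of the difference itself (6 d minus 24 h, log2 -1.24, adjusted p = 0.0498). The effect was -0.87 at 6 d and 0.36 at 24 h, and the gene was not detected on any DMSO 24 h array. It passed the filter only through DMSO 6 d, which enters the difference. The call was lost in 15 of 22 alternatives, among them each of 9 that left out 1 array and the replicate block (adjusted p = 0.056), and the difference ranged from -1.94 to -0.43.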

How the results depend on the processing

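Over 24 alternatives 904 changes of single members were recomputed, of which 807 kept their direction and their side of the threshold, 24 lost a call, 25 gained one and 48 changed sign, none of the last called in the setting reported. Of 226 counts of members 199 were the same. Scaling by array medians moved the median of all genes to 0.66 at 24 h, -0.31 at 6 d, 0.41 between the DMSO times and -0.54 between the vorinostat times, and 99.1% of the calls at 24 h and 3.35% at 6 d were then higher, where quantile scaling gave 59.7% and 36.2%. With median scaling the counts of members were 6 higher at 24 h, 0 higher and 1 lower at 6 d, 7 with a lower effect at 6 d, 1 lower in DMSO at 6 d and 5 lower in vorinostat at 6 d. Signs changed there for PHOX2A at 6 d (-0.049) and between vorinostat times (-0.56), GATA3 at 6 d (-0.19) and between DMSO times (0.37), HAND2 between vorinostat times (-0.37), LMO1 between DMSO times (0.046) and vorinostat times (-0.073), and in the difference of the effects for PHOX2A (-1.03), GATA2 (-0.92), GATA3 (-1.09) and LMO1 (-0.12). In the authors' normalized table PHOX2A differed by -0.017 between DMSO times. The cause was not tested.

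An analysis of variance of the 24 h arrays, the kind of test the methods name but run on the values and genes used here, left 1 member higher at 24 h. At 6 d the higher count was 0 with no detection filter and with no trend. The lower count for the difference of the effects was 0 with the authors' table, an offset of 50, no detection filter, a detection p under 0.05 and no trend. With the replicate number as a block 2 members were higher at 6 d, GATA2 (0.61, adjusted p = 0.00189) and TBX2 (0.37, adjusted p = 0.0471), and GATA3 had a difference of -0.036 and LMO1 a change between vorinostat times of -0.12. Of the partner proteins MTA1 then passed at 6 d (adjusted p = 0.0478, against 0.0565 without the block). Beyond TBX2 at 6 d, and HAND2 and INSM1 in the difference of the effects, that block changed no other call of a member.

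With 1 array left out, the counts ranged from 1 to 3 higher and 0 to 1 lower at 24 h, from 0 to 1 higher and 0 to 1 lower at 6 d, from 0 to 1 lower for the difference, and from 0 to 1 higher between vorinostat times. The changes that then crossed 0 were, at 6 d, GATA3 (-0.10 to 0.43) and ISL1 (-0.11 to 0.051). For the difference of the effects they were PHOX2A (-0.070 to 0.094), GATA2 (-0.15 to 0.23), GATA3 (-0.26 to 0.27) and LMO1 (-0.12 to 0.54). Between DMSO times they were PHOX2A (-0.069 to 0.095) and LMO1 (-0.51 to 0.15). Between vorinostat times they were PHOX2A (-0.051 to 0.10), GATA3 (-0.36 to 0.17), ISL1 (-0.12 to 0.048), INSM1 (-0.062 to 1.35) and LMO1 (-0.066 to 0.17). Where 1 vorinostat array was left at 6 d, it was assumed to vary like the other groups. INSM1 and LMO1 lay within 1.84 times the background, which limits what their values can show.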
